A study of Mus musculus with 2 samples.

Results

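The 76 genes described here are the heat shock proteins and J-domain co-chaperones of the mouse, measured in the heart at postnatal day 10. They were chosen by name from 55450 annotated genes: every gene whose symbol begins with Hspa, Hspb, Hspd, Hspe, Hsph, Hsp90, Dnaja, Dnajb or Dnajc, with Cryab and Bag3 added, and with at least 1 protein-coding transcript. The name rule also takes in Hspbp1 and Hspbap1, which carry an Hsp prefix as binding partners of heat shock proteins. All 76 were found by identifier in the GENCODE M21 annotation.

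The samples form 1 group of 2 female B6CASTF1/J mice aged 10 days, with 1 total RNA library from each heart (replicates 1 and 2). By its name, the strain crosses C57BL/6J with CAST/EiJ, and the labels give no treatment, transgene or second genotype. The labels name each heart as that of a separate numbered female and a biological replicate, but both stand under a single donor record, and no litter, batch or date is given, so the spread between them cannot be divided into parts. Whole hearts hold muscle, vessel, connective tissue and blood cells together, and in such bulk RNA fewer cells of a type and less RNA per cell cannot be told apart. Reads were placed on the C57BL/6J reference, which can lose reads with CAST/EiJ variants in both libraries alike.

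Molecular chaperones bind unfolded stretches of other proteins and help them fold, move between compartments or be degraded. HSP70 proteins do this in cycles of ATP use. J-domain proteins bring clients to HSP70 and start ATP hydrolysis, and HSP110 proteins and other exchange factors release the ADP. HSP90 acts later, on signalling proteins and receptors, the chaperonin Hspd1 with its lid Hspe1 encloses clients in mitochondria, and small heat shock proteins hold unfolded proteins without using ATP. In striated muscle the small heat shock proteins and Bag3, which links them to HSP70, are known for protecting the sarcomere and its filaments, and variants in CRYAB, BAG3 and DNAJB6 cause human muscle disease.

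The coding sequences carry the short motifs by which these proteins meet each other. The J domain contacts HSP70 through the tripeptide His-Pro-Asp, which was encoded in 44 of the 45 Dnaj members and in 0 of the 31 other members; the member without it was Dnajb13, a gene known from sperm flagella. Stretches of 27 bases from GENCODE M21 coding sequences are shown for a highly represented member of each J class and for Dnajb1, the classical heat-inducible form, with the His-Pro-Asp codons in capitals.
Dnaja2: aaagaatacCACCCTGATaagaatcca
Dnajb4: ctcaaatttCACCCGGACaagaacaaa
Dnajb1: ctgcgctacCACCCGGACaagaacaag
Dnajc7: ttgatgcacCATCCAGATcggcacagt

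The last codons of some members encode endings tied to a compartment or to partner proteins. The ending Glu-Glu-Val-Asp, which binds tetratricopeptide repeat co-chaperones, was encoded by 7 members (Hspa1a, Hspa1b, Hspa1l, Hspa2, Hspa8, Hsp90aa1 and Hsp90ab1). The ending Lys-Asp-Glu-Leu, which returns proteins to the endoplasmic reticulum (ER), was encoded by 3 (Hspa5, Hsp90b1 and Dnajc10). The final 27 bases of 4 members are shown with the codons of these endings in capitals before the stop codon.
Hspa8: ggccccaccattGAAGAGGTGGATtaa
Hsp90ab1: gcctcgcgcatgGAAGAGGTGGATtaa
Hspa5: gatacatcagaaAAAGATGAGTTGtag
Hsp90b1: gaatctacagagAAGGATGAATTGtaa

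Promoter windows from RefSeq (GRCm38.p6), each 300 bases long from 250 before the transcription start, matched 61 of the 76 members by symbol. A heat shock element was searched on both strands as 3 alternating units of GAA and TTC, each parted by any 2 bases. It was found in 4 of the 61 (6.56%: Dnajb6, Hspd1, Hspe1 and Hsph1), against 0.662% of 27025 genes with such windows. Hspd1 and Hspe1 are transcribed from opposite strands, with overlapping ends in the GENCODE annotation and starts 111 bases apart. Their RefSeq windows overlap (chr1:55087883-55088182 and chr1:55087898-55088197) and hold the same element, so the 4 genes represent 3 separate stretches. With only 2 units the count was 17 members (27.9%), against 17.0% of all genes. It then took in Hspa1a, Hspa1b, Hspb1, Hspb3, Hspb6, Hspb8, Bag3, Dnaja1, Dnaja4, Dnajb4, Dnajc10, Dnajc27 and Dnajc5g. The matches of Bag3, Hspb8 and Dnajc5g lie after the transcription start. So does the 3-unit match of Hsph1, at 15 to 27 or 36 to 48 bases from the start, depending on the window. The ER stress element, read as CCAAT, any 9 bases and CCACG on either strand, was found in Hspa5, Hsp90b1 and Dnajc3 (4.92% of members), against 0.137% of all genes. The letters TATAAA were in 4 members (6.56%), against 15.7% of all genes. A match in these windows is a description of the letters, not a binding site shown to be used.

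The stretch upstream of Hspe1 (chr1:55088018-55088117, strand of Hspe1) and those of Dnajb6 (chr5:29735808-29735907, plus strand) and Hspa1a (chr17:34972207-34972306, minus strand) show heat shock units in capitals. That of Hspe1 lies within the annotated Hspd1 gene. In Hspe1 the capitals cover 2 overlapping elements, in Dnajb6 1 element of 3 units, and in Hspa1a 2 units alone. The stretch of Hspa1b (chr17:34959289-34959388, minus strand) has the same letters as that of Hspa1a, and the full windows of the 2 genes are identical at 296 of 300 positions (98.7%).
Hspe1: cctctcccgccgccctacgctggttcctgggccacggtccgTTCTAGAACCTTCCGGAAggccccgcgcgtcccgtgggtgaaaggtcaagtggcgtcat
Dnajb6: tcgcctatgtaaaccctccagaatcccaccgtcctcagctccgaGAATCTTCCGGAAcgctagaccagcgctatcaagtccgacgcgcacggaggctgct
Hspa1a: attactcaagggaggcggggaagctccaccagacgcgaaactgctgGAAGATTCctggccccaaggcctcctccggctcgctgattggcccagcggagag

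The 3 members with the ER stress element all encode ER proteins, and their stretches are shown with the element in capitals: Hspa5 (chr2:34771984-34772083, plus strand), Hsp90b1 (chr10:86705493-86705592, minus strand) and Dnajc3 (chr14:118937786-118937885, plus strand). In the Hsp90b1 stretch the element lies on the opposite strand, so the capitals read as its reverse complement. The Hsp90b1 window holds another match, at −212 to −194 from the start, outside the stretch shown.
Hspa5: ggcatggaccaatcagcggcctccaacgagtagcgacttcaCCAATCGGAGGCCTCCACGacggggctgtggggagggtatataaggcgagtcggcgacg
Hsp90b1: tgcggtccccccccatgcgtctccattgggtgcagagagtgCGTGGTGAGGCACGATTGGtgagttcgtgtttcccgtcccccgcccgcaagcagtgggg
Dnajc3: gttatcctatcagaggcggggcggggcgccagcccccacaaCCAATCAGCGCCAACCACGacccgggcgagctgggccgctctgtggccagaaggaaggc

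The first question was which of these chaperones the day 10 heart contained and at what level. Levels are in TPM, a relative abundance of transcripts corrected for their length and scaled to a fixed total, as deposited in the RSEM gene tables. A gene was counted as detected at 1 TPM or more in both libraries. By this measure 67 of the 76 members were detected (88.2%), against 53.5% of 21901 protein-coding genes. The median over all members was 15.1 ± 0.643 TPM (SD, n = 2), against 1.87 ± 0.0212 TPM over protein-coding genes. Of the members, 10 had a mean of at least 100 TPM, 44 of at least 10, and 14 stood among the 1000 highest protein-coding genes. The highest, Cryab, was at rank 86. Counting protein-coding transcripts alone, Cryab was at rank 4 among the members with 305 ± 4.48 TPM, after Hspb7 (408 ± 10.1), Hsp90ab1 (376 ± 2.28) and Hspa8 (373 ± 13.4 TPM).

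The libraries held 40181177 expected counts in replicate 1 and 39617016 in replicate 2 on annotated genes. Members took 245532 counts in replicate 1, a share of 0.611% (exact binomial 95% interval 0.609 to 0.613), and 237363 counts in replicate 2, a share of 0.599% (0.597 to 0.602). These intervals cover counting error only, since they treat each read as an independent draw and leave out the spread between animals. The reads carry no molecular identifiers, so copies of the same molecule cannot be told apart. On the TPM scale members held 0.793% of the protein-coding total in replicate 1 and 0.769% in replicate 2. The 4 leading members, Cryab, Hspa8, Hsp90ab1 and Hspb7, together held 44.7% of all member TPM.

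**Figure D1:**
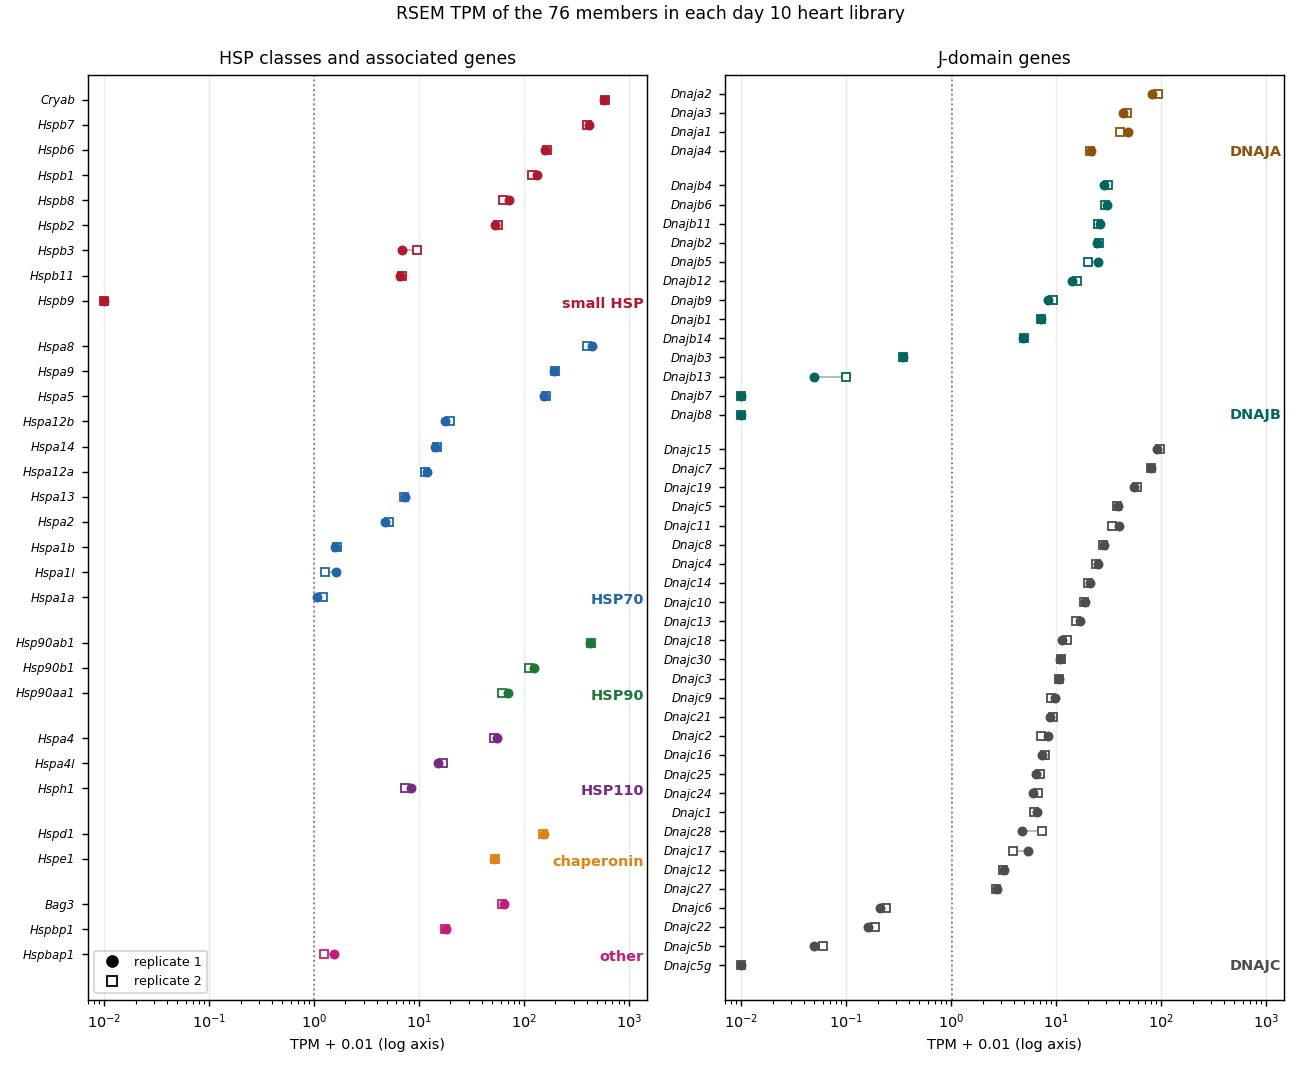
RSEM TPM + 0.01 on a log axis for each of the 76 members in replicate 1 (filled circles) and replicate 2 (open squares), grouped by class and sorted by mean level; the dotted line marks 1 TPM. The highest members of the small HSP, HSP70 and HSP90 classes lie furthest to the right, while 9 members lie below the line and 4 of them were at 0 counts in both libraries.

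The 9 small heat shock proteins held the largest share of member TPM of any class, 34.3% ± 0.187, and 8 of them were detected. By expected counts, not scaled by length, their share and that of the HSP70 class were both 24.6%, with HSP70 slightly ahead. Their median, 67.8 ± 5.37 TPM, was below those of the HSP90 members and the chaperonin pair (103 ± 0.880 TPM). Cryab, the alpha B crystallin that binds desmin and titin (chr9:50751325-50756636), had 575 TPM in replicate 1 and 588 in replicate 2. Hspb7, the cardiovascular heat shock protein (chr4:141420779-141425311), stood at 415 and 401 TPM in replicates 1 and 2. The next members were Hspb6, the phosphoprotein HSP20 (158 and 166 TPM), Hspb1, the actin-associated HSP25 (133 and 119 TPM), Hspb8, the partner of Bag3 (71.6 and 64.0 TPM), and Hspb2 (53.6 and 56.9 TPM). The 2 hearts lay close together for each of these, and no 2 neighbours in this order overlapped between the libraries.

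The remaining small HSP members were far lower. Hspb3, which forms complexes with Hspb2 in muscle, reached 6.84 TPM (replicate 1) and 9.65 TPM (replicate 2). Hspb11, which is now known as a component of cilium transport and not as a classical chaperone, was at 6.57 and 6.86 TPM. Hspb9, known from testis, was at 0 counts in both libraries. The approximate upper 95% limit for a count of 0 is 3 counts. This would be 0.0747 CPM (counts scaled to library size) in replicate 1 and 0.0757 CPM in replicate 2.

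The class held steady differences within each heart. A pair of genes was read as apart when the log2 ratio of TPM + 0.1 had the same sign in both libraries and its mean exceeded 3 SD; with 2 animals no exact p-value can go below 0.5, so none is given. Relative to Cryab, the log2 ratio was −0.51 ± 0.058 for Hspb7, −1.84 ± 0.023 for Hspb6, −2.21 ± 0.13 for Hspb1, −3.10 ± 0.14 for Hspb8 and −3.40 ± 0.038 for Hspb2 (SD, n = 2 each). The order of Hspb7 and Cryab depended on the measure. Hspb7 was the higher by CPM, not scaled by length (log2 ratio 1.59), and by the TPM of protein-coding transcripts alone (0.42), a measure chosen after seeing the data. Hspb3 lay below Hspb2 by a log2 ratio of −2.75 ± 0.29. Bag3 (64.6 TPM in replicate 1 and 61.5 TPM in replicate 2) and Hspb8, which act as a complex, were not apart, at −0.10 ± 0.064.

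HSP70 members spanned the widest range of the classes detected in full. All 11 were detected, and 3 of them carried most of the class, each the main HSP70 of its compartment. Hspa8, the constitutive cytosolic form (chr9:40800984-40810087), was measured at 448 TPM in replicate 1, with 404 TPM in replicate 2. Hspa9, the mitochondrial form mortalin, stood at 195 and 200 TPM, and Hspa5, the ER form BiP (chr2:34771970-34777547), at 157 and 164 TPM. The class median was much lower, 11.7 ± 0.481 TPM, since the other 8 members lay below 20 TPM. Among them were the more distant relatives Hspa12b, known from endothelium (17.8 and 19.8 TPM), Hspa14 of the ribosome-associated complex (14.2 and 14.95 TPM) and Hspa12a (12.0 and 11.3 TPM).

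The heat-inducible HSP70 genes were close to the detection minimum. Hspa1b had 1.57 TPM in replicate 1 and 1.66 in replicate 2, and Hspa1a had 1.05 and 1.20 TPM, the lowest of all detected members. Their sum was 2.74 ± 0.170 TPM. Of the 31-base words in the Hspa1a transcript, 65.4% occur in other genes, nearly all in Hspa1b, so the division of reads between the 2 genes is an estimate. Relative to Hspa8, the log2 ratio was −8.44 ± 0.23 for Hspa1a and −7.96 ± 0.16 for Hspa1b, or 348-fold and 248-fold lower. The neighbouring Hspa1l, known for its use in spermatids and divergently transcribed from a start 547 bases from that of Hspa1a, was at 1.62 and 1.28 TPM. Hspa2, also known from testis, was at 4.70 and 5.14 TPM. Of the 7 genes listed as testis markers, Hspa1l and Hspa2 among them, the germ cell genes Prm1, Prm2 and Tnp1 were at 0 in both hearts. Odf1, of the same list, was not at 0 but was not detected by the 1 TPM rule.

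All 3 HSP90 members were detected, with a class median of 119 ± 10.5 TPM. Hsp90ab1, the constitutive cytosolic form (chr17:45567775-45573271), reached 425 TPM (replicate 1) and 432 TPM (replicate 2). Hsp90b1, the ER form GRP94, stood at 126 and 111 TPM, and Hsp90aa1, the inducible cytosolic form (chr12:110690605-110702728), at 70.9 and 61.4 TPM. Within each heart Hsp90aa1 lay 6.49-fold below Hsp90ab1 (log2 ratio −2.70 ± 0.16), apart by the 3 SD rule. Of the Hsp90aa1 transcript, 70.8% of 31-base words also occur in other genes, mainly a pseudogene, against 16.6% for Hsp90ab1, so the size of this ratio depends on how shared reads were divided; by kallisto it was −2.17.

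HSP110 members, the nucleotide exchange factors of HSP70, were led by Hspa4. This gene was measured at 55.1 TPM in replicate 1, with 52.4 TPM in replicate 2, Hspa4l at 15.1 and 16.9 TPM, and the heat-inducible Hsph1 at 8.40 and 7.34 TPM. Both relatives were apart from Hspa4, with log2 ratios of −1.75 ± 0.17 for Hspa4l and −2.76 ± 0.085 for Hsph1. Hspbp1, another exchange factor, was at 18.2 and 17.8 TPM, and Hspbap1, a binding partner of Hspb1, at 1.53 and 1.24 TPM.

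**Figure D2:**
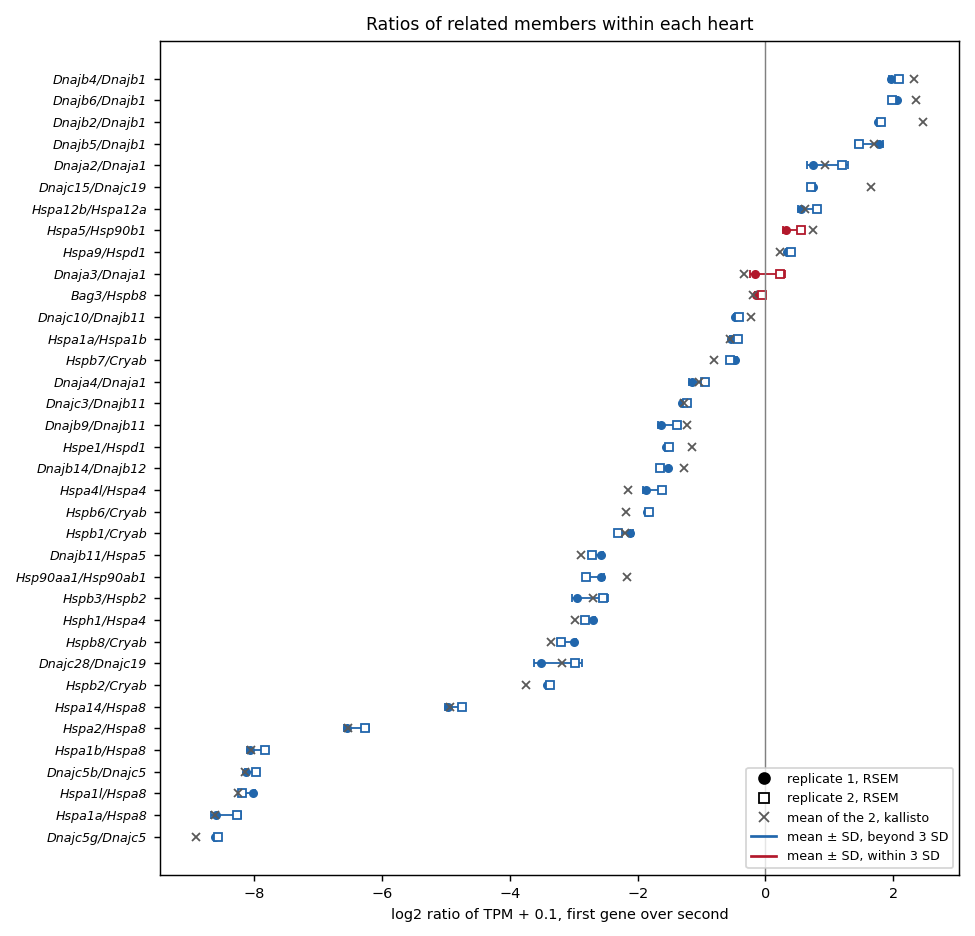
Log2 ratio of TPM + 0.1, first gene over second, for 36 pairs of related members, with replicate 1 as filled circles, replicate 2 as open squares, the bar as mean ± SD (n = 2) and the kallisto mean as a cross. In 33 pairs (blue) the mean lies beyond 3 SD, and in 3 pairs (red) it does not; the ratios of Dnajc5b and Dnajc5g are set largely by the pseudocount, since these genes had 1 and 0 counts in each library.

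Over the 36 pairs of related members, 33 were apart, 25 with the first-named gene lower and 8 with it higher. The 3 that were not apart were Bag3 and Hspb8, Hspa5 and Hsp90b1 (0.44 ± 0.17), and Dnaja3 and Dnaja1 (0.029 ± 0.28). The pairs were chosen with earlier results of these data known, and the share apart was not computed for pairs of other genes. Whether related chaperones are apart more often than other genes was therefore not tested. By kallisto 35 of the 36 mean ratios had the same sign, the exception being Dnaja3 over Dnaja1, but 4 pairs changed call: Bag3/Hspb8 and Hspa5/Hsp90b1 became apart, and Dnajb9/Dnajb11 and Dnajc10/Dnajb11 were no longer apart. As the plot of pair ratios shows, the widest gaps lay between inducible or testis relatives and the main form of a family. By CPM, not scaled by length, 4 of the 36 ratios changed sign: Hspb7/Cryab, Bag3/Hspb8, Dnajc3/Dnajb11 and Dnajc10/Dnajb11.

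Members of the mitochondrion summed to 653 ± 9.31 TPM over 9 genes, all detected. Besides Hspa9, the chaperonin Hspd1 (chr1:55077835-55088243) had 154 TPM in replicate 1 and 151 in replicate 2, and its lid Hspe1 (chr1:55088132-55091307) had 52.5 and 53.1 TPM. The 2 genes, which share a start region, differed within each heart by a log2 ratio of −1.53 ± 0.034 for Hspe1 over Hspd1. Their lengths differ widely and both share many 31-base words with other genes, pseudogene copies among them (48.1% for Hspe1 and 55.8% for Hspd1), so the ratio carries that uncertainty; by kallisto it was −1.15. Hspa9 over Hspd1 was 0.37 ± 0.047.

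The 6 mitochondrial J-domain genes summed to 251 ± 7.51 TPM. Dnajc15, a relative of the import motor component Dnajc19, reached 92.3 TPM (replicate 1) and 97.1 TPM (replicate 2), and Dnajc19 reached 54.9 and 59.2 TPM. By RSEM both levels rested mainly on transcripts not annotated as coding, described further on. Dnaja3, the matrix partner of Hspa9, was at 43.2 and 47.4 TPM, and Dnajc11, which associates with the inner membrane organising system, at 39.7 and 34.1 TPM. Dnajc30, known for the repair of respiratory complex I, was at 10.9 and 11.1 TPM, and Dnajc28 at 4.73 and 7.39 TPM.

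Members of the ER lumen or its J-domain system summed to 357 ± 7.26 TPM over 8 genes, of which Hspa5 and Hsp90b1 held most. The 5 J-domain genes among them summed to only 70.2 ± 1.06 TPM. Dnajb11, a soluble BiP partner, was measured at 26.4 TPM in replicate 1, with 24.9 TPM in replicate 2, Dnajc10, a disulfide reductase, at 18.9 and 18.6 TPM, and Dnajc3, the kinase inhibitor p58IPK, at 10.7 and 10.6 TPM. Dnajb9, another BiP partner, was at 8.43 and 9.41 TPM, and Dnajc1 at 6.60 and 6.11 TPM. Dnajb11 lay 6.24-fold below Hspa5 (log2 ratio −2.64 ± 0.10). Hspa13, a microsomal HSP70, was at 7.41 and 7.28 TPM. The 5 members listed for the ER membrane, Dnajb12, Dnajb14, Dnajc14, Dnajc16 and Dnajc18, summed to 60.1 ± 1.90 TPM.

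Among the J-domain genes, 37 of 45 were detected and their sum was 888 ± 5.03 TPM, or 21.5% of member TPM. All 4 DNAJA members were detected, with a median of 44.9 ± 1.34 TPM. Dnaja2 had 81.5 TPM in replicate 1 and 93.4 in replicate 2, Dnaja1 had 48.5 and 40.5 TPM, and Dnaja4 had 21.7 and 20.99 TPM. Dnaja2 was apart from Dnaja1, but only just, at 0.98 ± 0.32. Of the Dnaja1 leading transcript, 90.9% of 31-base words occur in other genes, the largest share of any detected member.

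DNAJB members, of which 9 of 13 were detected, had a median of 8.92 ± 0.693 TPM. The cytosolic members Dnajb4, Dnajb6, Dnajb2 and Dnajb5 lay between 20.2 and 31.1 TPM in both libraries, close to each other. Dnajb4, a close relative of Dnajb1, reached 28.5 TPM (replicate 1) and 31.1 TPM (replicate 2), and Dnajb6, which suppresses aggregates, reached 30.4 and 29.0 TPM. Dnajb1, the classical partner of inducible HSP70, was at 7.24 and 7.25 TPM. These 4 were above Dnajb1 in both hearts, with log2 ratios of 2.02 ± 0.087 for Dnajb4, 2.02 ± 0.050 for Dnajb6, 1.79 ± 0.036 for Dnajb2 and 1.62 ± 0.21 for Dnajb5. Dnajb7, Dnajb8 and Dnajb13, known from testis, had 0, 0 and at most 3 counts in either library. Dnajb3 was at 0.34 TPM in both, the highest level of any member that was not detected.

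DNAJC members were the most numerous and varied, with 24 of 28 detected and a median of 9.22 ± 0.103 TPM. Below Dnajc15, Dnajc7, which binds HSP70 and HSP90 through its tetratricopeptide repeats, was measured at 80.4 TPM in replicate 1, with 81.1 TPM in replicate 2. Dnajc5, the cysteine string protein of secretory vesicles, was at 39.0 and 37.8 TPM, while its relatives Dnajc5b and Dnajc5g had 1 and 0 counts in each library. Dnajc8, known for its link to splicing, was at 28.6 and 28.3 TPM. Dnajc6, the neuronal auxilin that uncoats clathrin vesicles, and Dnajc22 were below 0.3 TPM in both libraries. Apart from these and the mitochondrial Dnajc19 and Dnajc11, the detected DNAJC members ranged from 25.2 TPM for Dnajc4 down to 2.66 TPM for Dnajc27.

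The second question was which annotated transcripts carried these levels. Of the 67 detected members, 8 have a single annotated transcript, Hspb7 and Bag3 among them. The transcript with the highest mean TPM was the same in both libraries for 63 members. It was the same by RSEM and kallisto for 58 of 67, against 79.0% of all detected protein-coding genes. In 3 members (4.48%) the leading transcript was not annotated as protein-coding, against 6.11% of detected protein-coding genes. The median share of TPM in transcripts of other types was 3.27% over members and 7.22% over detected protein-coding genes.

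Dnajc15 stood out among these 3. A processed transcript of 419 bases held 64.8% of its TPM in replicate 1 and 60.5% in replicate 2, and a transcript annotated for nonsense-mediated decay held 32.7% and 37.0%. Its protein-coding transcript held only 2.25 TPM in replicate 1 and 2.47 TPM in replicate 2, out of a gene level above 90 TPM in both. By kallisto transcripts not annotated as coding held 99.1%. The gene's place as the highest DNAJC member therefore applies to all of its transcripts together and not to its coding transcript. Over all transcripts the log2 ratio of Dnajc15 to Dnajc19 was 0.73 ± 0.025, and over coding transcripts alone −3.38.

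In the other 2 genes the methods differed. For Cryab, a retained-intron transcript of 585 bases held 47.5% of TPM in replicate 1 and 47.6% in replicate 2 by RSEM, but 25.2% and 22.4% by kallisto, which put a coding transcript first. The coding transcripts of Cryab summed to 302 TPM in replicate 1 and 308 TPM in replicate 2. Its start lies 1029 bases from that of Hspb2 on the opposite strand and the 2 gene bodies overlap; whether counting used strand is not given, so reads in the overlap are of uncertain origin. For Dnajc19, a retained-intron transcript of 419 bases held 55.2% and 55.7% by RSEM and 0% by kallisto in each library, and 54.2% of the 31-base words of that transcript occur in other genes, nearly all in the pseudogene Dnajc19-ps.

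**Figure D3:**
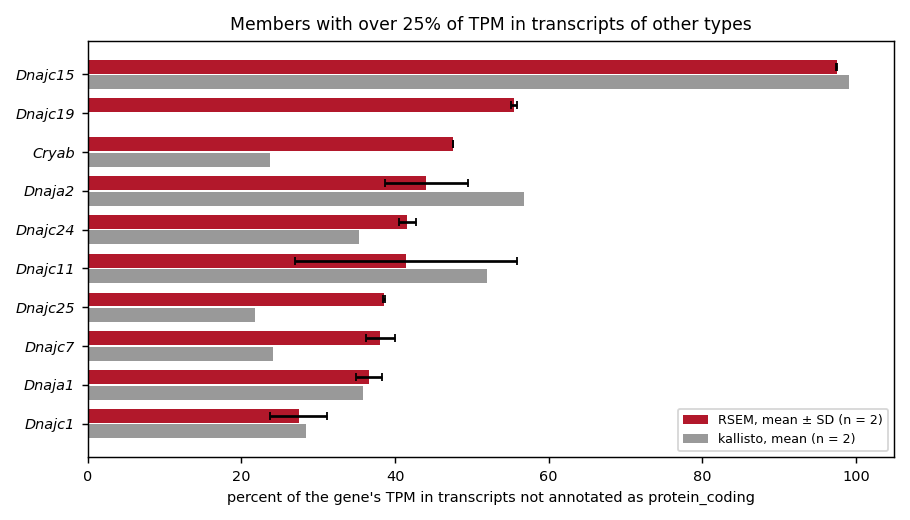
Percent of each gene's TPM in transcripts not annotated as protein-coding, for the 10 detected members over 25% by RSEM, with RSEM as mean ± SD of 2 libraries (red) and the kallisto mean in grey. Dnajc15 is near 100% by both methods, whereas Dnajc19 is at 55.5% by RSEM and 0% by kallisto.

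Some other members divided their TPM among coding forms. Dnajb6 has a long nuclear and a short form known from its protein, but which transcript encodes which form was not checked. Its transcript of 2918 bases held 39.6% in replicate 1 and 44.9% in replicate 2, and that of 1605 bases held 38.4% and 34.1%. Both had levels of 9.89 to 13.0 TPM, and kallisto gave similar shares, 45.3% for the longer and 31.3% for the shorter. In Hspa8, a coding transcript of 2394 bases held 46.9% and 55.8% by RSEM, and a second of 2019 bases held 35.1% and 30.6% by RSEM but 0.340% by kallisto. The leading transcript of Hspa8 shares 77.2% of its 31-base words with other genes, and that of Dnajb6 shares 37.7%. In Dnaja2 the coding transcript had 48.67 TPM in replicate 1 and 48.70 in replicate 2, so the difference between the gene levels (81.5 and 93.4 TPM) lay in a retained-intron transcript of 507 bases, at 32.8 and 44.7 TPM.

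Levels by kallisto were higher than by RSEM for all 67 detected members, with a ratio above 2-fold for Dnajc15 and Dnajc11 alone. The same share was not computed over other detected genes, so whether this shift is particular to chaperones was not tested. Dnajc15 stood at 94.7 ± 3.42 TPM by RSEM and 197 ± 8.41 TPM by kallisto, and Dnajc11 at 36.9 ± 3.97 TPM by RSEM and 76.7 ± 0.493 TPM by kallisto. The smallest ratios were those of Dnajc30 (10.9 and 11.1 TPM by RSEM, 11.7 TPM in both libraries by kallisto) and Hspa9 (means of 197 TPM by RSEM and 213 TPM by kallisto). Both methods put Cryab first and Hspa1a last among the detected members.

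**Figure D4:**
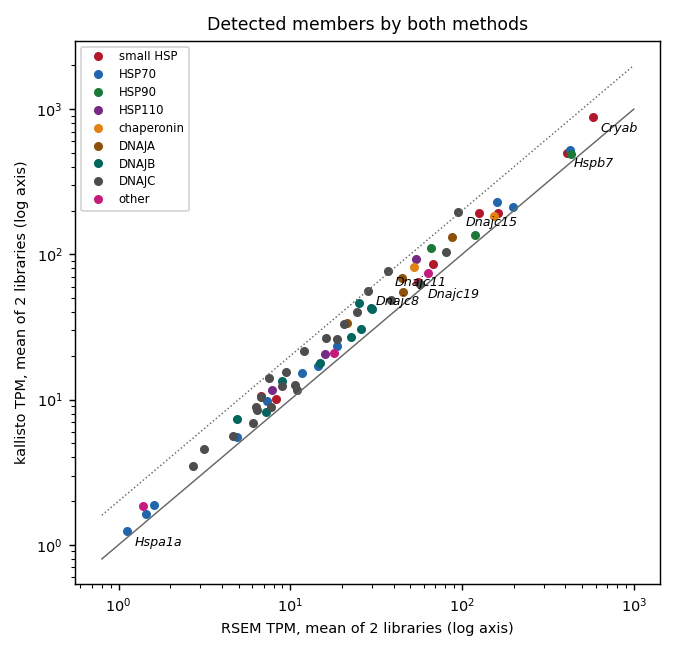
Mean TPM of the 67 detected members by RSEM (horizontal) and kallisto (vertical), both on log axes and coloured by class; the solid line marks equal values and the dotted line a 2-fold higher kallisto value. All points lie above the solid line, and Dnajc15 and Dnajc11 lie just beyond the dotted line.

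The third question was how far the chaperones differed between the 2 hearts. Expected counts were compared by a two-sided exact conditional binomial test with TMM library sizes and Benjamini-Hochberg adjustment over 16512 genes. It sets counting error against the difference between these 2 libraries and does not compare conditions. Taking an adjusted p under 0.05 with a ratio of 1.5-fold as a call, 0 of the 69 members with at least 20 summed counts were called, against 2.85% of all genes tested. At an adjusted p under 0.05 with any ratio, 14 members differed (20.3%, against 17.6% of all genes), 7 higher and 7 lower in replicate 1. At an unadjusted p under 0.05 there were 24 (34.8%, against 27.5% of all genes), 11 higher and 13 lower in replicate 1. The count of 0 was the same with DESeq2 size factors, with library size alone, with spike-in counts as library size and with kallisto counts.

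**Figure D5:**
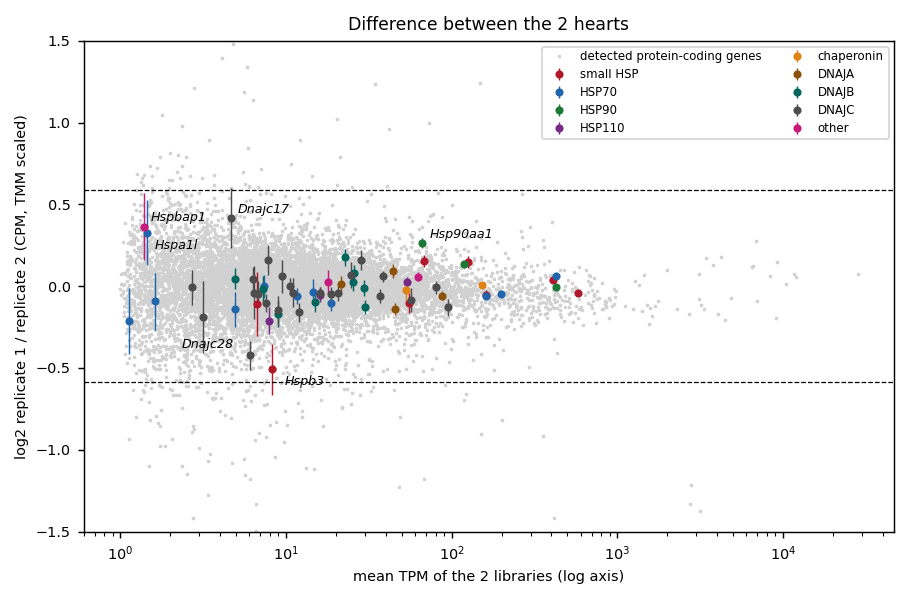
Log2 ratio of replicate 1 over replicate 2 (CPM scaled by TMM) against mean TPM on a log axis, for 11715 detected protein-coding genes (grey) and the 67 detected members (coloured by class, bars show the counting SE). Dashed lines mark 1.5-fold; no member lies outside them, and 10 grey genes lie beyond the axis.

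Most ratios between hearts were small for these genes. The median absolute log2 ratio was 0.061 in detected members, against 0.092 in detected protein-coding genes, and 62 of the 67 members were within a ratio of 5 to 4. The 2 sets were not matched for level. Counting undetected genes too, members lay higher (median 15.1 against 1.87 TPM over all protein-coding genes). Over detected members alone the median was 19.4 TPM, and over detected protein-coding genes it was not computed. The share within 5 to 4 was not computed over other detected genes. Whether chaperones differ less than genes of equal level was therefore not tested. Hspb3 had 146 counts in replicate 1 and 202 in replicate 2, the largest log2 ratio of a detected member at −0.51 (counting SE 0.16, adjusted p = 0.0102, exact binomial test). Dnajc28 had 484 and 631 counts, a log2 ratio of −0.42 (SE 0.087, adjusted p = 1.91e-05). Dnajc17, with 147 and 107 estimated counts, was at 0.42 (SE 0.18) with an adjusted p of 0.107. Hspbap1 (0.36) and Hspa1l (0.33) were the other 2 members past that ratio, with adjusted p-values of 0.245 and 0.292.

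Of the members with high counts, Hsp90aa1 differed most. It had 4883 counts in replicate 1 and 3957 in replicate 2, a log2 ratio of 0.26 (counting SE 0.031, adjusted p = 5.97e-16, exact binomial test). Hspb8, Hspb1, Hsp90b1 and Dnajb5 were also higher in replicate 1, with log2 ratios of 0.13 to 0.18, as were Hspa8 at 0.06 and Hspb7 at 0.04. Lower in replicate 1 beside Hspb3 and Dnajc28 were Dnajc18, Dnaja3, Dnajb4, Hspa5 and Hspa9, with log2 ratios of −0.16 to −0.05. All of these had adjusted p-values under 0.05, but the 2 animals give no measure of the biological spread beyond this single difference.

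Markers of some other cells differed between the hearts, and those of others were not called. The summed level of 8 fat markers was 104 TPM in replicate 1 and 36.4 TPM in replicate 2, with 5 of the 6 tested genes called higher. Red cell markers summed to 5271 TPM in replicate 1 and 12990 TPM in replicate 2, with 7 of 7 called lower, and atrial markers to 522 and 966 TPM, with 6 of 6 called lower. Endothelial markers summed to 398 TPM in replicate 1 and 384 TPM in replicate 2, and fibroblast markers to 1303 and 1323 TPM, with 0 called in either list. In the neuron, ciliated cell and testis lists 0 were called, but only 2, 1 and 2 of their genes could be tested. The 2 testis genes tested were the members Hspa1l and Hspa2. These 3 lists are too short to show whether such cells differed. The 6 heart muscle markers, Myh6 and Myl2 among them, summed to 29083 and 30317 TPM with 0 called, and none of the 7 skeletal muscle markers was detected (sums of 2.53 and 3.01 TPM). The part of the fat, red cell and atrial shifts in the ratios of Hspb3, Dnajc28 or Hsp90aa1 was not tested.

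Other genes of the chaperone system, which the name rule did not take, were read from a list of regulators and partners. Of 65 listed symbols 64 were found and 62 were detected, with a median of 36.8 ± 1.76 TPM. The heat shock factors, which drive the stress response, were moderate: Hsf1 reached 13.8 TPM (replicate 1) and 13.6 TPM (replicate 2), Hsf2 reached 8.51 and 8.03 TPM, and Hsf4 and Hsf5 were below 0.5 TPM. The 8 subunits of the cytosolic chaperonin CCT had a median of 72.8 ± 1.38 TPM, led by Tcp1 (95.1 ± 1.72), Cct3 (85.6 ± 4.86) and Cct8 (78.4 ± 0.156 TPM), a narrow range from 47.4 TPM for Cct6a. Prefoldin, which hands actin and tubulin to CCT, had a median of 31.1 ± 0.399 TPM and was led by Pfdn5 at 140 ± 0.057, Pfdn1 at 36.2 ± 3.88 and Pfdn6 at 32.2 ± 0.552 TPM.

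The muscle myosin chaperones were Smyd1 (158 ± 5.02 TPM), Unc45b (72.6 ± 1.73) and the general form Unc45a (7.45 ± 0.240). Among HSP90 co-chaperones Fkbp4 stood at 101 ± 2.36, Cdc37, which brings kinases, at 70.3 ± 3.32, and Stip1, which joins HSP70 to HSP90, at 47.1 ± 0.0283 TPM. Among HSP70 partners Bag6 stood at 117 ± 1.17, Bag1 at 85.6 ± 1.58 and the ubiquitin ligase Stub1, which acts with Bag3, at 51.96 ± 2.04 TPM. Clients and partners of Bag3 and the small HSPs were led by desmin (Des, 384 ± 21.2), Ctsd (214 ± 3.90) and Sqstm1 (97.0 ± 0.728 TPM). In the ER the lectin chaperones Calr (130 ± 5.49) and Canx (120 ± 2.82) led with Pdia3 (67.0 ± 3.35 TPM), and in the mitochondrion Trap1, the HSP90 of that compartment (66.8 ± 0.926), led with Lonp1 (42.3 ± 3.18) and Clpx (33.4 ± 3.73 TPM).

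Of the 63 partner genes tested, 1 was called between the hearts (1.59%, against 2.85% of all genes). Fkbp5, an HSP90 co-chaperone and known glucocorticoid target, was measured at 3.94 TPM in replicate 1, with 8.23 TPM in replicate 2. By TMM-scaled counts replicate 1 was at 0.441-fold of replicate 2 (adjusted p = 5.27e-38, exact binomial test).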

How the data were processed

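Total RNA-seq of heart from 2 animals was analysed. The authors deposited, per library, a gene table and 2 transcript tables on mm10 with GENCODE M21, per the text that accompanies them. Per the file headers these hold expected counts (reads that fit several genes are shared by estimation), TPM and the percent of gene TPM in each transcript (RSEM columns), and estimated counts with TPM (kallisto columns). Their tool versions, trimming and strand settings: not given in the sources used here.

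Neither spike-ins nor entries without a gene name entered library sizes or tests. Expected counts were rounded for the binomial test, with TMM factors from edgeR 4.0.16 and DESeq2 1.42.0 size factors as an alternative, in R 4.3.3. Ratios used a prior count of 0.5. With 1 group, edgeR's quasi-likelihood test could not be fitted. The binomial test was tested on simulated data. Other steps ran in Python 3.11.15 (scipy 1.17.1, numpy 2.4.6, pandas 2.3.3; plots by matplotlib 3.10.9). Motifs and shared 31-base words were read from RefSeq promoters and GENCODE transcripts. Protein sequences were not used here; endings and His-Pro-Asp were read from coding sequences, and protein identities were not computed. Members, classes, pairs and lists were chosen with earlier results of these data known. Named were the up to 6 highest members per class, all pair members, members nearest 1 TPM, members over 2-fold apart between methods, and the 3 highest partners per subgroup with any called; transcripts and weak ratios named beyond this were chosen after their values were seen.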

Additional observations from a re-analysis of the deposited data

How the results depend on the processing

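Median levels were higher with kallisto TPM, at 20.5 over all members, 85.3 for small HSP, 15.2 for HSP70, 137 for HSP90, 20.7 for HSP110, 133 for chaperonin, 61.9 for DNAJA, 13.3 for DNAJB, 12.5 for DNAJC and 20.9 for other members. Over detected members alone they were 19.4 for all, 96.8 for small HSP, 22.5 for DNAJB and 10.8 for DNAJC. Chosen after seeing the data, coding transcripts alone gave 12.5 for all, 9.99 for HSP70, 36.6 for DNAJA and 7.45 for DNAJC, and members with under 5% shared 31-base words gave 18.4. The small HSP share was 34.9% by kallisto, 33.2% by coding transcripts alone and 24.6% of expected counts, where HSP70 (also 24.6%) was slightly ahead. By coding transcripts alone, Hspb7/Cryab (0.42) and Dnajc15/Dnajc19 (−3.38) changed sign. By CPM not scaled by length the log2 ratio changed sign for Hspb7/Cryab (1.59), Bag3/Hspb8 (0.42), Dnajc3/Dnajb11 (0.20) and Dnajc10/Dnajb11 (0.60), and Dnaja3/Dnaja1 changed sign by kallisto (−0.33) and, leaving out 1 replicate, ranged from −0.17 without replicate 2 to 0.23 without replicate 1. At a minimum ratio of 5 to 4, 2 of 69 members were called, Hspb3 and Dnajc28, against 6.24% of all genes. With 2 units of the heat shock element 17 members matched. The cause was not tested. No paired analysis was possible because there is only 1 group.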
